A study of Mus musculus with 9 samples.

Results

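The complement system of the mouse liver was followed gene by gene across the cells that transcribe it. The set comprised 35 genes for complement components, regulators and receptors, taken by name from the gene table of one single-cell count matrix, which held 53593 distinct symbols. All 35 were found. In the cells kept for analysis 33 of them had a summed count of at least 30, C7 had 8 counts and Cfd had 0. Itgam stood on 2 identifiers, of which the second added 7 counts, and the identifiers were summed.

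Complement is a plasma protease cascade that tags surfaces for uptake and can assemble a pore in membranes. The classical pathway starts when C1q binds antibody or damaged cells, the lectin pathway when mannose-binding lectins or ficolins bind sugars, and the alternative pathway amplifies deposited C3. All 3 routes meet at the cleavage of C3, which is followed by cleavage of C5 and assembly of C6, C7, C8 and C9. The liver is the textbook source of most circulating complement, with hepatocytes as the main producers and macrophages as a source of C1q and properdin.

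The study sequenced dissociated liver cells of C57BL/6J mice, 6-8 weeks old, on a Singleron microwell platform that tags each transcript with a unique molecular identifier (UMI). Wild-type mice had received carbon tetrachloride (CCl4), a hepatotoxin that scars the liver, for 0, 2 or 4 weeks, with 1 sample each. Mice labelled CluKO, that is, lacking clusterin by their label, were given CCl4 together with recombinant human clusterin, and their 6 samples were held in 1 matrix whose 4694 cell barcodes were all distinct and carried no sample name. The rows of the 3 wild-type matrices are not paired with gene names in the files used here, so the wild-type groups were not analysed here and every value below comes from the matrix labelled CluKO.

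Clu, the gene named in that label, was counted in this matrix: 13743 UMIs lay in the kept cells, and hepatocytes held 1892 CPM (counts per 1000000 counts of a class). The library labelled CluKO therefore goes against its label at the level of this gene's UMIs, and no direction is drawn from the genotype. Whether the counted stretch of Clu lies outside the deleted part is not known from the sources used here. The design text speaks of 3 such mice, and how the 6 samples relate to them is not stated. With 1 pooled matrix there is no replicate check. Levels are UMIs summed over the cells of a class and scaled to CPM, intervals are 95% and cover counting error only, and no p-value was computed.

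After filters 4610 cells with 28658212 UMIs remained, and no cell of the matrix had fewer than 2371 UMIs. Cells were gated into classes on UMIs of listed marker genes, none of which belongs to the complement set. The gates held 740 hepatocyte-gated cells, 440 mesothelial-gated cells, 544 Kupffer-gated cells (the resident liver macrophages), 167 macrophages with Cx3cr1 and MHC class II genes, 993 lipid-associated macrophages, and 177 other macrophages. They further held 364 monocytes, 124 granulocyte-monocyte progenitors, 220 neutrophils, 54 basophils or mast cells, 39 T or NK cells, 182 plasma cells and 124 erythroid cells, although red cells had been lysed. The endothelial gate held 19 cells, the stellate or fibroblast gate 6 and the cholangiocyte gate 0, and 406 cells (8.81%) stayed unassigned. Among gates of 20 or more cells, median depth ranged from 3280 UMIs per cell in the erythroid gate to 11167 in the progenitor gate. The endothelial gate had a median of 2879.

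Promoter sequence is shown for all 6 members highest in Kupffer-gated cells that have a window, and for 4 further members that show the mesothelial, hepatocyte and neutrophil-lineage patterns, chosen with their motif matches known. RefSeq promoter windows (GRCm38.p6) were present for 28 of the 35 members. Each sequence is the part of the 250 bases before the RefSeq start that lies outside the member's own gene span in the GENCODE annotation, written 5′ to 3′ along the gene. Capitals mark matches on either strand to GAGGAA, the core of PU.1-type sites, to TTNCNNAA, a C/EBP-type pattern, or to GTTAAT, the core of sites for HNF1, a liver transcription factor; PU.1 is a lineage factor of macrophages. In the Kupffer set C1qb, C1qc, Fcna and Vsig4 hold GAGGAA, while C6 holds only the C/EBP-type pattern and Cfp only GTTAAT. C1qb lies at chr4:136880129-136886187 and its window at chr4:136886201-136886450, both on the minus strand.
C1qb: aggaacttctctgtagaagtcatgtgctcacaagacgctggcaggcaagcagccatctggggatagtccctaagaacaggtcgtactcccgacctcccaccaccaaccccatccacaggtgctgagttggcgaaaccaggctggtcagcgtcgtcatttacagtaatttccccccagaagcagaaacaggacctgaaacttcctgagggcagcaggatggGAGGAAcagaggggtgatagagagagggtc
C1qc: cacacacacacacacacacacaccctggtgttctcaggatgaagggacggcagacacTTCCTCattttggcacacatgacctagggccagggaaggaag
Fcna: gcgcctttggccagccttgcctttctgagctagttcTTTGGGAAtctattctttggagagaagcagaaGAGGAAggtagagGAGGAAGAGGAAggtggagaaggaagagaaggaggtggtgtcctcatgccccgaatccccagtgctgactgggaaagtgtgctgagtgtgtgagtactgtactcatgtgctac
Vsig4: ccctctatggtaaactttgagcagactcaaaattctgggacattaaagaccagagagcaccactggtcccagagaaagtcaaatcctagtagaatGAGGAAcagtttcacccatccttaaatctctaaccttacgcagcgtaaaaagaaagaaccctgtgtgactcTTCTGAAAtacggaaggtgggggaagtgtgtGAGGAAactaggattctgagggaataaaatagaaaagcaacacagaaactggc
C6: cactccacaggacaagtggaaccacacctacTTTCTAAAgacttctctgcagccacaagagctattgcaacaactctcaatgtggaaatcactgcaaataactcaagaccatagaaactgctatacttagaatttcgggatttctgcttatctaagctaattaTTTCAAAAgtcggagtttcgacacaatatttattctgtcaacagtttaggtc
Cfp: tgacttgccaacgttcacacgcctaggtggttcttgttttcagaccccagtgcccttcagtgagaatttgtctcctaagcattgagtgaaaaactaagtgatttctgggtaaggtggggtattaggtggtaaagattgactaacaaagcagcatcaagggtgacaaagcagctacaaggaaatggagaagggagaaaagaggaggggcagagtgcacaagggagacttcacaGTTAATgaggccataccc
The C1qc window was chr4:136893066-136893164, that of Fcna chr2:25628031-25628224, that of Vsig4 chrX:96293439-96293688 and that of Cfp chrX:20931556-20931805, all on the minus strand, and that of C6 was chr15:4726960-4727174 on the plus strand. For C3 (chr17:57228137-57228386, minus strand), the member with most UMIs in mesothelial-gated cells, and for Fcnb (chr2:28084886-28085128, minus strand), the ficolin of progenitors and neutrophils, capitals mark the C/EBP-type pattern.
C3: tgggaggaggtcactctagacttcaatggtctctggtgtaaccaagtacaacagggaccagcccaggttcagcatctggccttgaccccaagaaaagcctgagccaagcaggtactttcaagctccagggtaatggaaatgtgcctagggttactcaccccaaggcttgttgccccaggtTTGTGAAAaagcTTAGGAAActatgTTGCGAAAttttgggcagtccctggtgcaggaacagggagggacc
Fcnb: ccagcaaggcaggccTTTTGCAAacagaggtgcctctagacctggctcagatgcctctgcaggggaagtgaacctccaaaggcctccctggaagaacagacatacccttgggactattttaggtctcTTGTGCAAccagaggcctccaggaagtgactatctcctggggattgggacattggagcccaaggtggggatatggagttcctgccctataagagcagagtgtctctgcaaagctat
For the neighbouring pore genes C8a (chr4:104876399-104876648, minus strand) and C8b (chr4:104766067-104766316, plus strand), highest in hepatocytes, capitals mark GTTAAT, and in C8b also the C/EBP-type pattern.
C8a: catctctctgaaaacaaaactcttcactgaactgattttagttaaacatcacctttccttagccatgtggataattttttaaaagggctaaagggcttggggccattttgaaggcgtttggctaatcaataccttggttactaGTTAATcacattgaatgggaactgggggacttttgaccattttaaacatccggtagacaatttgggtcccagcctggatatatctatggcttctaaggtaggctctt
C8b: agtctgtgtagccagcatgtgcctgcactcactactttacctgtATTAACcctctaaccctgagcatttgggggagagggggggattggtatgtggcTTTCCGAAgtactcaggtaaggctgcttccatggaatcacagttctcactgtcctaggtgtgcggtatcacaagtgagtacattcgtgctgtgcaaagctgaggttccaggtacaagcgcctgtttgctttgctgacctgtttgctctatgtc
Over the full 250 bases of each member's first window, GAGGAA was present for 4 of the 9 members with a window that were highest in a macrophage gate, for 0 of 9 highest in hepatocytes and for 0 of 4 highest in mesothelial-gated cells. The second window of C5ar2, a macrophage member not counted among the 4, held 1 match. Itgam, highest in neutrophils, and Cd59a, highest in erythroid cells, also held GAGGAA in their first windows. Over all 28 members with a window it was present for 6. The same letters stood in 23.3% of 32851 mouse promoter windows of that length. The C/EBP-type pattern was present for 6 of 9, 3 of 9 and 3 of 4 members of these groups, against 36.8% of all windows. GTTAAT was present for 1 of 9, 4 of 9 and 1 of 4, against 6.43% of all windows. A match describes letters in a window and no binding was measured.

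Complement transcripts were divided between hepatocytes, mesothelial-gated cells and macrophages. Shares of UMIs depend on how many cells of each class were captured, and levels in CPM do not. Of the 33 members with enough counts, 11 (33.3%) had their highest level in hepatocytes, where 14.4% of all 13754 genes with that count peaked. Mesothelial-gated cells held the highest level of 8 members, against 17.6% of all genes, and Kupffer-gated cells that of 7, against 11.2%. Any of the 4 macrophage gates held the highest level of 10 members, against 19.6% of all genes; lipid-associated macrophages (2.88% of all genes), Cx3cr1 macrophages (3.20%) and other macrophages (2.32%) each held 1 of these. These were C3ar1, C5ar2 and Itgax; C5ar2 in Cx3cr1 macrophages was 1.36 times the next class (0.481 to 3.42) and Itgax in other macrophages 1.03 times (0.753 to 1.38), so their class is not settled by these counts. Among the hepatocyte members the same holds for Masp1, at 4.61 times the next class (0.749 to 190). Among the Kupffer members C1qb stood at 1.00 times the next class, Cx3cr1 macrophages (0.967 to 1.04), so its class is not settled either. Neutrophils were highest for 2 members (3.54% of all genes), progenitors for 1 (9.70%) and erythroid cells for 1 (8.13%). Monocytes (3.92% of all genes), basophils or mast cells (8.11%), T or NK cells (12.9%) and plasma cells (2.14%) were highest for 0.

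**Figure D1:**
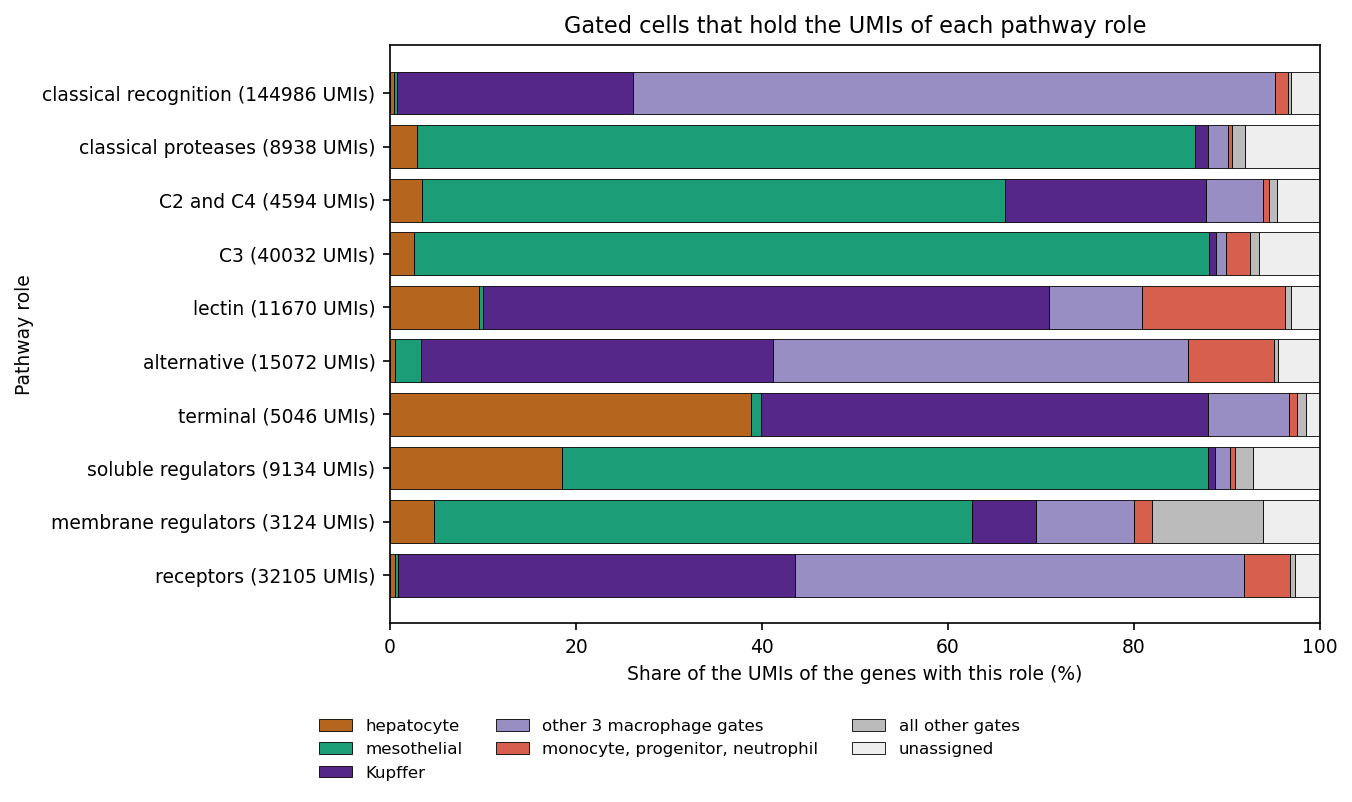
Share of UMIs (horizontal axis, percent) of the genes of each pathway role (vertical axis, with their UMI totals) by the gate of the cells that held them. Mesothelial-gated cells hold 85.4% of C3 UMIs and 83.7% of those of the classical proteases, Kupffer-gated and other macrophages hold most C1q UMIs, and hepatocytes hold 38.8% of the terminal-pathway UMIs.

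**Figure D2:**
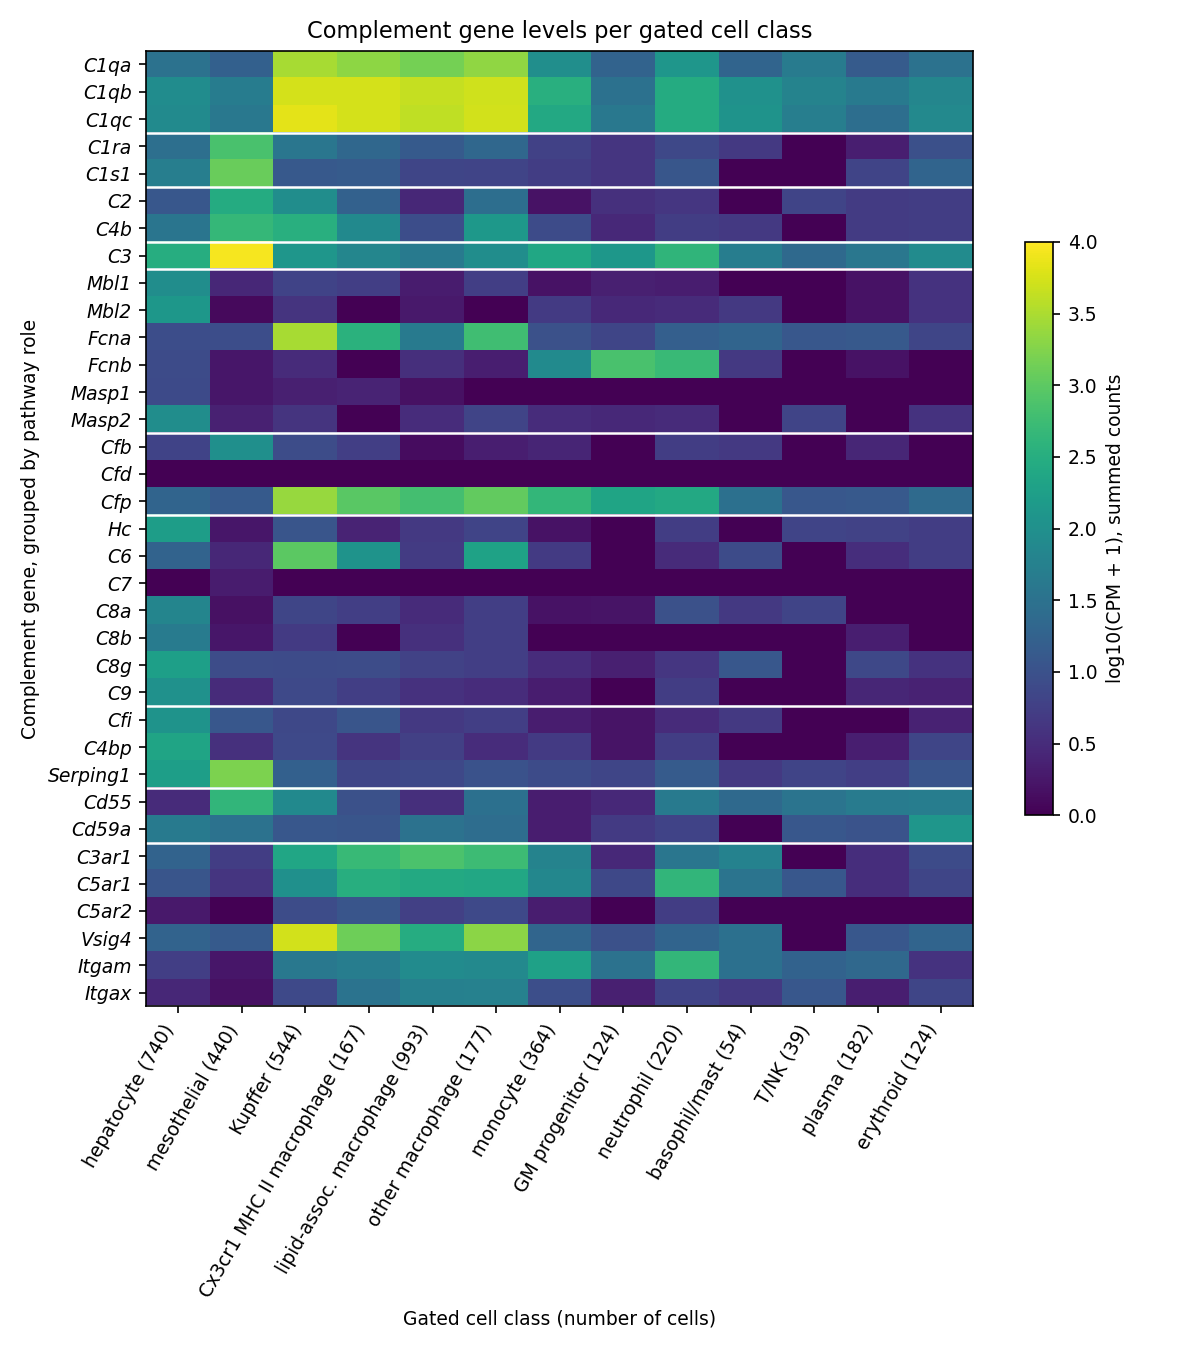
Level of each of the 35 members (rows, grouped by pathway role) in 13 gated classes (columns, with cell numbers), as log10(CPM + 1) of summed counts. The C1q rows are bright in the 4 macrophage gates, C3, Serping1 and C1s1 are brightest in the mesothelial gate, and the C8 and C9 rows are brightest in the hepatocyte gate.

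C1q, the recognition molecule of the classical pathway, is built from chains encoded by C1qa, C1qb and C1qc, which stand side by side on chromosome 4. All 3 were macrophage transcripts. C1qa stood at 3016 CPM in Kupffer-gated cells, 2122 in Cx3cr1 macrophages, 1473 in lipid-associated macrophages and 92.3 in monocytes. C1qb stood at 5531, 5514, 4451 and 331 CPM in the same order, and C1qc at 6969, 5542, 4186 and 257 CPM. Monocytes, the circulating precursors, were thus far below every macrophage gate for each chain: their level was 0.0627 times that of lipid-associated macrophages for C1qa (0.0535 to 0.0729), 0.0743 for C1qb (0.0685 to 0.0805) and 0.0615 for C1qc (0.0561 to 0.0673). Over the set, 9 of 22 members tested between monocytes and lipid-associated macrophages were at least 2-fold lower in monocytes, where 3.94% of all genes were, and 3 were higher (C3, Fcnb and Itgam), where 4.84% were.

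The chains were found together in single cells. Of Kupffer-gated cells 99.8% had a UMI of all 3 genes, as had 91.0% of Cx3cr1 macrophages, 93.4% of lipid-associated macrophages and 6.32% of monocytes. With each cell thinned to 1000 UMIs the shares were 91.5%, 77.2%, 64.8% and 3.02%. In T, NK and plasma cells, which should lack C1q and had a median of 8098 UMIs against 4128 in Kupffer-gated cells, C1qb was found in 29.4% of cells at 43.9 CPM and C1qc in 22.6% at 29.5 CPM. C1qa, C1qb and C1qc stood at 31.1, 88.0 and 80.5 CPM in hepatocytes and 16.0, 47.4 and 38.4 CPM in mesothelial-gated cells. After thinning 1.08% of hepatocytes and 0% of mesothelial-gated, T, NK or plasma cells had all 3. Summed macrophage markers stood at 394 CPM in hepatocytes and 251 in plasma cells, and their part in these levels was not tested.

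C1ra and C1s1 encode the proteases that C1q activates, and among gates of 20 or more cells both were highest in mesothelial-gated cells. The 6 stellate or fibroblast cells held similar levels, 782 CPM of C1ra (531 to 1110) and 1286 CPM of C1s1 (958 to 1691). C1ra stood at 708 CPM (682 to 735) in mesothelial-gated cells, 27.8 in hepatocytes and 36.7 in Kupffer-gated cells. C1s1 stood at 1219 CPM (1184 to 1254) in mesothelial-gated cells, 24.3 times the hepatocyte level (20.9 to 28.6), and at 12.2 CPM in Kupffer-gated cells. Mesothelial-gated cells held 81.0% of all C1ra UMIs and 85.3% of all C1s1 UMIs, and 95.2% of these cells had a UMI of both genes (37.7% after thinning). The recognition unit of C1 and its proteases therefore had their highest levels in different cells of this suspension. C1ra and C1s1 have near copies, C1rb and C1s2, with 13 and 12 UMIs in all.

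C4 and C2 form the classical and lectin C3 convertase. C4b stood at 454 CPM in mesothelial-gated cells and 327 in Kupffer-gated cells, with 35.5 in hepatocytes and 7.96 in lipid-associated macrophages. C2 stood at 288 CPM in mesothelial-gated cells and 91.9 in Kupffer-gated cells, with 11.3 in hepatocytes and 1.77 in lipid-associated macrophages. Both genes thus shared one order, mesothelial above Kupffer above hepatocyte, and Kupffer-gated cells held 25.4% of C4b UMIs and 14.1% of C2 UMIs. The near copy C4a had 76 UMIs with its highest level, 17.5 CPM, in hepatocytes, and C2 and Cfb overlap a further annotated gene on the same strand, so reads may be split. C3, Masp1, Masp2, C7, C8a, C8g, Hc, Fcna, C1s1, Cd55 and C5ar2 also overlap at least 1 other annotated gene. Both identifiers of Itgam do so too, including each other. Since the use of strand in counting is not known, the counts of these members may hold reads of the overlapping genes.

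C3, on which all routes converge (chr17:57203970-57228136, minus strand), stood at 8812 CPM (8719 to 8906) in mesothelial-gated cells and at 308 CPM (290 to 328) in hepatocytes. Every one of the 440 mesothelial-gated cells had a C3 UMI (96.4% after thinning), as had 16.7% of T, NK and plasma cells (2.26% after thinning). Per cell the level ranged from 447 to 37729 CPM with a median of 7853 and quartiles of 4766 and 13494. In hepatocytes the median cell had 0 and the upper quartile was 363 CPM. Mesothelial-gated cells, 9.54% of the cells kept, held 85.4% of all C3 UMIs.

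Among blood lineages C3 was far lower, and T, NK and plasma cells held 36.7 CPM (28.7 to 46.3). One plasma cell alone reached 12684 CPM. C3 stood at 420 CPM in neutrophils, 243 in monocytes, 131 in progenitors, 124 in Kupffer-gated cells and 41.4 (37.1 to 46.2) in lipid-associated macrophages, the last within the interval of T, NK and plasma cells. Monocytes were 5.87 times above lipid-associated macrophages (5.08 to 6.79). The 189 neutrophils with all of Ltf, Camp and Ngp, which mark immature cells, held 335 CPM of C3. Their summed mesothelial markers stood at 24.4 CPM, and those of plasma cells at 31.9 CPM. The part of mesothelial transcripts in the C3 level of these neutrophils was not tested. The remaining 31 neutrophils held 1088 CPM of C3, and a single cell of them reached 11683 CPM. Those 31 cells also had 414 CPM of mesothelial markers and 2859 CPM of macrophage markers against 901 in the immature cells, and the part of these markers in their C3 level was not tested. Of 10 members tested between immature and other neutrophils, 5 were lower in the immature cells, where 13.9% of all genes were (C1qa, C1qb, C1qc, C3 and C3ar1), and 1, Fcnb, was higher, where 7.97% were.

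The factor B gene Cfb, the catalytic part of the alternative convertase, was mesothelial too, at 96.1 CPM (86.6 to 106) against 5.33 in hepatocytes and 7.59 in Kupffer-gated cells. Cfb was found in 46.8% of mesothelial-gated cells (9.55% after thinning) and 1.36% of T, NK and plasma cells, and 33.4% of mesothelial-gated cells had a UMI of C3, C4b, C2 and Cfb together, against 0.135% of hepatocytes (1.36% and 0% after thinning). Cfd, the adipocyte-rich protease that activates factor B, had 0 UMIs among 28658212. Cfp encodes properdin, which holds the alternative convertase together, and came from myeloid cells. It stood at 2397 CPM in Kupffer-gated cells, 1098 in other macrophages, 963 in Cx3cr1 macrophages and 643 in lipid-associated macrophages. Monocytes held 446 CPM of Cfp, neutrophils 262 and progenitors 212. The alternative pathway was therefore divided, with C3 and Cfb highest in mesothelial-gated cells and Cfp highest in Kupffer-gated cells.

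Compared directly, mesothelial-gated cells and hepatocytes held opposite parts of the cascade. A call required a ratio of at least 2-fold with 20 CPM added to each side. Of 28 members with enough counts in these cells, 8 were higher in mesothelial-gated cells, against 15.0% of all 11128 genes tested, and 10 were lower, against 9.55%. The median log2 ratio was -0.56 over the members and 0.19 over all genes. The 8 were C1ra, C1s1, C2, C4b, C3, Cfb, Serping1 and Cd55, and the 10 were Mbl1, Mbl2, Masp2, Hc, C8a, C8b, C8g, C9, Cfi and C4bp.

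**Figure D3:**
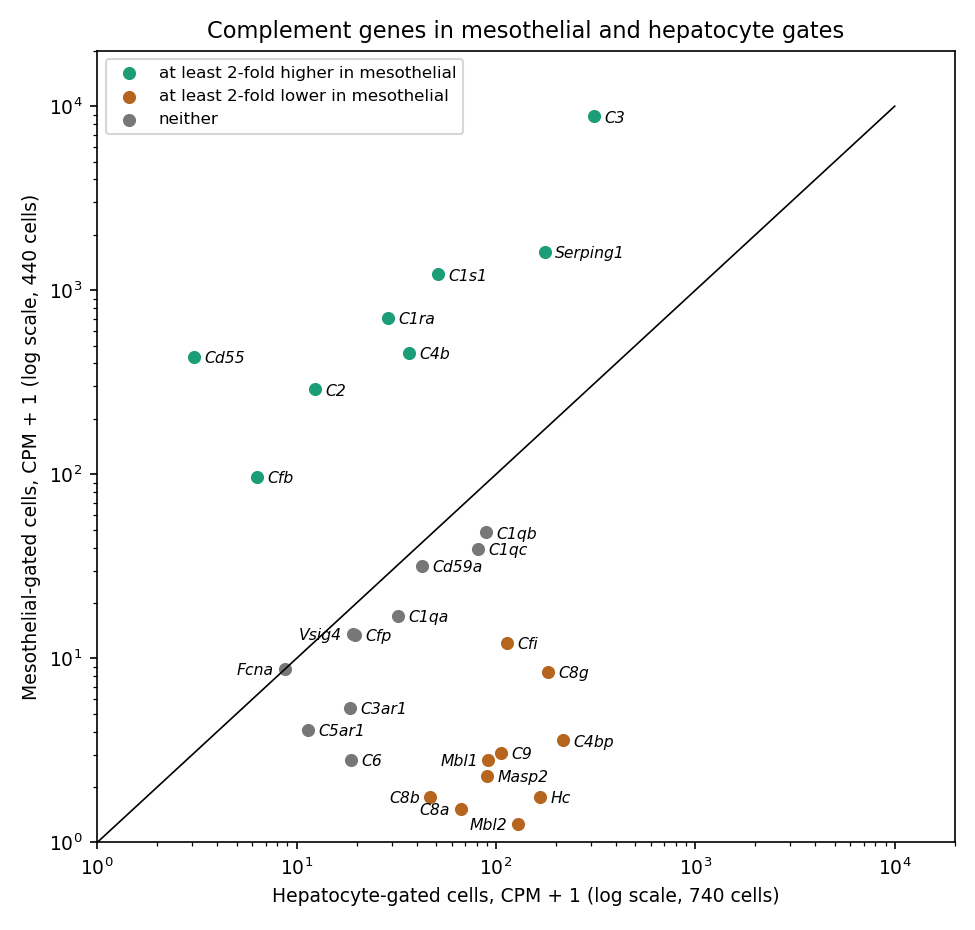
Level of the 28 tested members in mesothelial-gated cells (vertical axis) against hepatocytes (horizontal axis), both CPM + 1 on log scales, with the line of equal levels. C3 to Cfb form a group above the line, and Mbl1, Mbl2, Masp2 and the C8 and C9 genes lie in a group below it. C1q and other macrophage genes, Fcna among them, lie low on both axes.

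Ratios without the offset show the distance. C3 was 28.6 times higher in mesothelial-gated cells (26.9 to 30.4), C2 25.6 times (18.6 to 36.4), C1ra 25.4 times (20.7 to 31.6) and C4b 12.8 times (10.6 to 15.5). Cd55 was 210 times higher (102 to 523), with only 7 UMIs in hepatocytes. On the other side Hc reached 0.00469 of the hepatocyte level in mesothelial-gated cells (0.000964 to 0.0138) and C4bp 0.0120 (0.00573 to 0.0222). Summed hepatocyte markers stood at 47771 CPM in hepatocytes and 1050 CPM in mesothelial-gated cells, where all 13 had UMIs. Mesothelial-gated cells also held 6593 CPM of the stellate and fibroblast markers, with 8 of 10 detected and Reln and Rgs5 at 0; hepatocytes held 98.0 CPM. The part of that mesenchymal signal in the mesothelial levels was not tested.

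Within the mesothelial gate the level varied. The 78 cells with at least 2 UMIs of Enpp2, which encodes the secreted enzyme autotaxin, held 5186 CPM of C3 against 9508 in the other 362, and 149 CPM of C4b against 512. C4b was the only one of 16 tested members past 2-fold, with a ratio of 0.290 (0.233 to 0.358), while 2.16% of all 9548 genes were called lower; none was higher, against 1.65%. Serping1, C1s1 and C1ra differed by less than 2-fold. Summed mesothelial markers were also lower in the Enpp2 cells, 5458 against 9167 CPM, and summed stellate and fibroblast markers higher, 8931 against 6145 CPM.

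A split by cycling markers, added after the data were seen, gave a wider contrast. In the 83 cycling mesothelial-gated cells 5 of 16 tested members were at least 2-fold lower than in the other 357, against 0.618% of all genes, and 0 were higher, against 3.15%. C3 stood at 4864 against 10396 CPM, C4b at 168 against 568, C2 at 148 against 345, C1ra at 400 against 832 and Serping1 at 930 against 1898. Cd55, at 394 against 452 CPM, and Cfb, at 76.5 against 104 CPM, were closer. Cycling cells were deeper, with a median of 12634 UMIs against 7165, and their mesothelial markers stood at 7177 against 9128 CPM. With every cell weighted equally 2 members, C2 and C4b, stayed past 2-fold, and after thinning C3 and Serping1 did not.

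The 2 splits shared 21 cells. C3 stood at 11097 CPM in the 300 cells with neither feature, 6211 in the 57 non-cycling Enpp2 cells, 5242 in the 62 cycling cells without Enpp2 and 3395 in the 21 cycling Enpp2 cells. C4b stood at 634, 176, 186 and 101 CPM in the same order. Serping1 followed cycling instead: 1943 and 1627 CPM in the non-cycling cells without and with Enpp2, and 930 and 928 CPM in the cycling cells.

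The lectin pathway was split by molecule. Mbl1 and Mbl2, the mannose-binding lectins, were hepatocyte genes at 90.6 CPM (80.7 to 101) and 128 CPM (116 to 141), and no other gate of 20 or more cells passed 5.48 CPM for Mbl1 or 3.80 CPM for Mbl2. Masp2, the protease that cleaves C4 and C2, stood at 89.1 CPM in hepatocytes and at most 5.64 CPM in the other gates of 20 or more cells, with 7.39 CPM in unassigned cells. Masp1 had 71 UMIs in all and stood at 6.81 CPM in hepatocytes; the endothelial gate, too small to be ranked, had 25 of these UMIs in 10 of its 19 cells, a level of 378 CPM (245 to 558).

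The 2 ficolins, both on chromosome 2, were expressed by different myeloid cells. Fcna stood at 2980 CPM in Kupffer-gated cells, 593 in other macrophages, 355 in Cx3cr1 macrophages, 42.3 in lipid-associated macrophages and 8.69 in monocytes. Of Kupffer-gated cells 98.3% had an Fcna UMI (87.3% after thinning), against 9.95% of T, NK and plasma cells (0.905%). Fcnb stood at 711 CPM in progenitors, 515 in neutrophils and 80.4 in monocytes, and at 2.11 CPM in Kupffer-gated cells. Fcnb was uneven between cells: it was found in 36.3% of progenitors, where single cells reached 12535 CPM, and in 26.8% of neutrophils, against 0.452% of T, NK and plasma cells; after thinning the shares were 15.3% in progenitors and 16.8% in neutrophils. All 476 neutrophil UMIs of Fcnb lay in the 189 immature cells, which held 580 CPM, and the other 31 neutrophils had 0. Fcna had 14 UMIs in neutrophils and 9 in progenitors. Of the promoter windows above, that of Fcna holds GAGGAA 3 times and that of Fcnb 0 times. The window of Itgam, a member highest in neutrophils, holds it 2 times. A link between these letters and the levels was not tested.

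Of the terminal components, Hc (the mouse C5 gene), C8a, C8b, C8g and C9 were hepatocyte genes, at 165, 65.4, 45.9, 182 and 105 CPM in hepatocytes, which held between 78.3% and 85.8% of each gene's UMIs. C6 was not. It stood at 987 CPM (947 to 1028) in Kupffer-gated cells, in 93.8% of them (62.1% after thinning; 1.81% of T, NK and plasma cells before it), and at 17.8 CPM in hepatocytes, and Kupffer-gated cells held 85.7% of its UMIs. Cx3cr1 macrophages held 114 CPM of C6, the mixed gate of other macrophages 198, lipid-associated macrophages 3.92 and T, NK and plasma cells 2.07. C7, which binds C5b and C6, was nearly absent: 4 of its 8 UMIs lay in mesothelial-gated cells, 2 in the 6 stellate or fibroblast cells and 2 in unassigned cells. The transcripts for the membrane pore thus came from hepatocytes and Kupffer-gated cells, with C7 not measurable at this depth in the main gates.

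Single hepatocytes carried few of these transcripts. Of the 11 members highest in hepatocytes, the median hepatocyte had a UMI of 2 (quartiles 1 and 4), 96 of 740 cells had none and 0 cells had all 11. All of C8a, C8b and C8g were found in 3.92% of hepatocytes (0% after thinning) and in 0 cells of the other gates. Hepatocytes had a median of 3373 UMIs.

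Hepatocytes with a high share of albumin UMIs had more complement transcript. Splitting the 740 cells at the median albumin share, 11 of 25 tested members were at least 2-fold higher in the cells above it, against 3.61% of all 7477 genes tested, and 0 were lower, against 0.214%. The median log2 ratio was 0.82 over the members and -0.093 over all genes. Cfi, a protease that inactivates C3b and C4b, stood at 199 against 21.1 CPM, a ratio of 9.42 (6.64 to 13.8). C8b stood at 77.4 against 13.3 CPM, C4bp at 355 against 69.4, Mbl2 at 199 against 54.9, C3 at 470 against 141, Hc at 247 against 79.6 and C9 at 159 against 48.3. C8g, C1s1, C4b and Serping1 were the other 4, of which C4b did not pass with every cell weighted equally (log2 ratio 0.92). Mbl1, Masp2 and C8a did not reach 2-fold with the offset. The split also separated the summed hepatocyte markers: the 13 markers, albumin among them, stood at 67998 against 26794 CPM. The part of this difference in the member ratios was not tested. Median depth was alike at 3333 and 3448 UMIs.

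**Figure D4:**
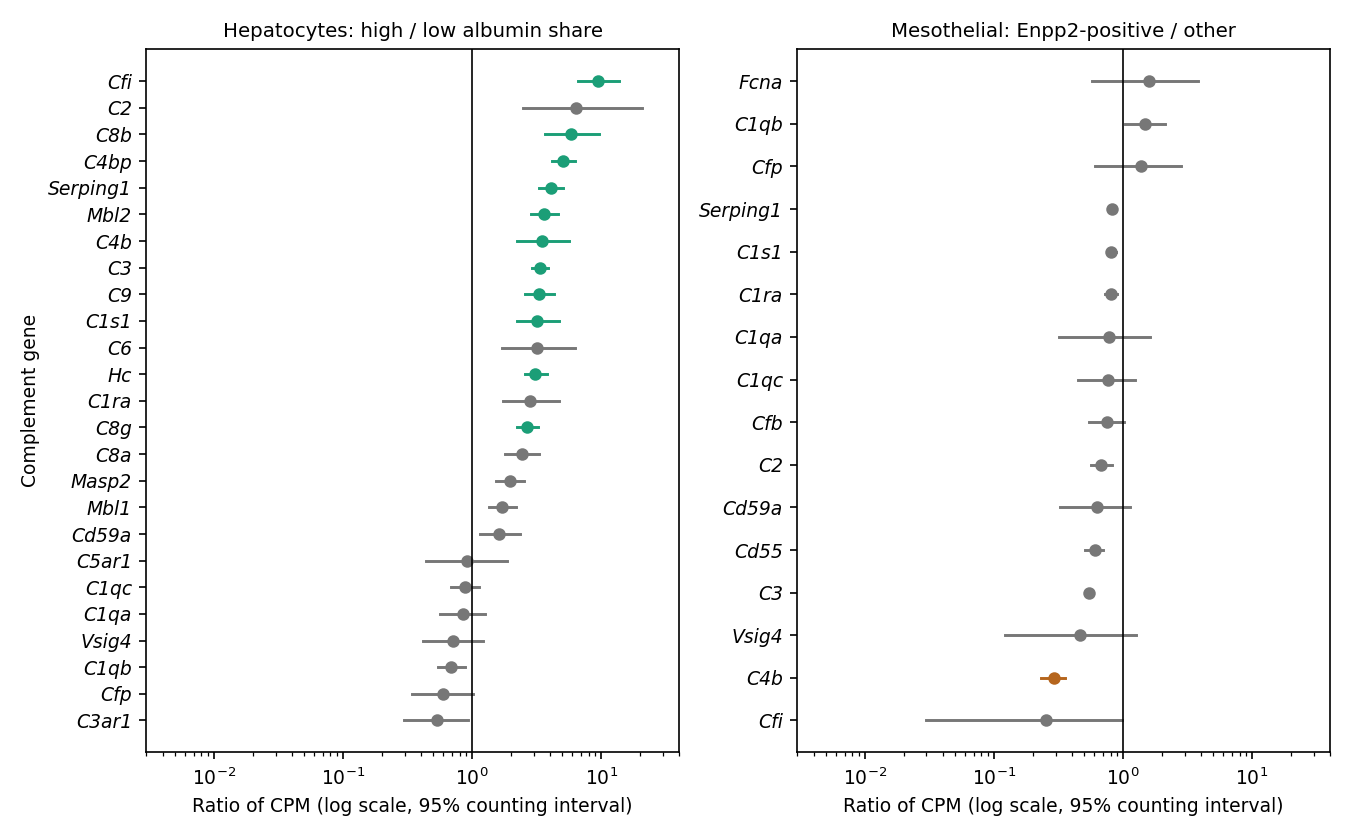
Ratio of CPM (horizontal log axis) for each tested member, with 95% counting intervals as lines: left, hepatocytes with high over low albumin share (370 cells each); right, mesothelial-gated cells with Enpp2 (78) over the others (362). Green marks at least 2-fold higher and brown at least 2-fold lower with 20 CPM added. On the left 11 members are green, led by Cfi; on the right only C4b is brown, and C3, at 0.545, does not reach the call.

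Among gates of 20 or more cells, the soluble regulators were split between the same 2 classes. Serping1, the C1 inhibitor that blocks C1r and C1s, stood at 1621 CPM (1581 to 1661) in mesothelial-gated cells and 175 CPM (161 to 190) in hepatocytes, and mesothelial-gated cells held 80.6% of its UMIs. The proteases and their inhibitor were found together, since 95.2% of mesothelial-gated cells had a UMI of all of C1ra, C1s1 and Serping1, against 2.03% of hepatocytes (32.0% and 0.135% after thinning). The 6 stellate or fibroblast cells stood above the mesothelial gate for Serping1, at 3229 CPM (2694 to 3839). Cfi stood at 112 CPM in hepatocytes and 11.1 in mesothelial-gated cells. C4bp, a cofactor for factor I on C4b, stood at 215 CPM in hepatocytes and 2.58 in mesothelial-gated cells.

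Membrane regulators protect a cell's own surface. Cd55, which speeds decay of the C3 convertases, stood at 435 CPM (415 to 456) in mesothelial-gated cells, 79.3 in Kupffer-gated cells, 49.0 in erythroid cells, 45.6 in plasma cells and 44.3 in neutrophils; T, NK and plasma cells together held 44.5 CPM. Hepatocytes held 2.07 CPM, lipid-associated macrophages 2.40 and monocytes 1.09. Cd59a, which blocks assembly of the pore, stood at 127 CPM (102 to 156) in erythroid cells, 41.5 in hepatocytes, 31.2 in lipid-associated macrophages and 30.9 in mesothelial-gated cells. The near copy Cd59b was also highest in erythroid cells, at 28.8 CPM. In the 19 endothelial cells Cd55 stood at 907 CPM (692 to 1168) and Cd59a at 665 CPM (483 to 893), both above every larger gate.

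The receptors were highest in different myeloid cells. C3ar1, the receptor for C3a, stood at 724 CPM in lipid-associated macrophages, 555 in the mixed gate of other macrophages and 488 in Cx3cr1 macrophages. It stood at 233 CPM in Kupffer-gated cells, 59.7 in monocytes and 1.93 in progenitors. C5ar1, the C5a receptor that draws neutrophils, stood at 421 CPM (380 to 465) in neutrophils, 321 (279 to 366) in Cx3cr1 macrophages, 269 (257 to 280) in lipid-associated macrophages and 101 in Kupffer-gated cells. Progenitors held 6.42 CPM, 0.0153 of the neutrophil level (0.00726 to 0.0284). Of 11 members tested between progenitors and neutrophils 8 were lower in progenitors, where 6.83% of all genes were, and 0 were higher, where 31.9% were. The lower members included C5ar1, Itgam, C3, C3ar1, C1qa, C1qb and C1qc. The last 5 of these were also lower in immature than in other neutrophils. The part of macrophage transcripts in the progenitor contrast was not tested. C5ar2, a second C5a receptor, had 85 UMIs in all, and its levels of 10.3 CPM (4.16 to 21.3) in Cx3cr1 macrophages and 7.59 CPM (4.50 to 12.0) in Kupffer-gated cells overlapped in their intervals. Both C3ar1 and C5ar1 were found in 73.3% of lipid-associated macrophages, 43.1% of Cx3cr1 macrophages and 16.7% of Kupffer-gated cells (12.6%, 11.4% and 2.02% after thinning).

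Receptors for fragments of C3 on surfaces followed 2 patterns. Vsig4, a Kupffer cell receptor for C3b and iC3b, stood at 5394 CPM in Kupffer-gated cells, all of which had a UMI (98.0% after thinning). Of T, NK and plasma cells 9.05% had a Vsig4 UMI before thinning. The Vsig4 level was 2039 CPM in the mixed gate of other macrophages, 1287 in Cx3cr1 macrophages, 302 in lipid-associated macrophages and 19.0 in monocytes. Itgam, the alpha chain of complement receptor 3, stood at 437 CPM in neutrophils, 193 in monocytes, 84.4 in lipid-associated macrophages and 39.2 in Kupffer-gated cells. Itgax, the alpha chain of complement receptor 4, stood at 56.4 CPM (41.8 to 74.3) in the mixed gate of other macrophages and 54.7 (49.7 to 60.1) in lipid-associated macrophages, with overlapping intervals, and at 6.75 CPM in Kupffer-gated cells. Among lipid-associated macrophages Itgax stood at 85.2 CPM in the 384 with high Mmp12 and 26.9 in the 609 others, the only one of 20 tested members past 2-fold (0 were after thinning), where 0.239% of all genes were higher; 0 members were lower, where 0.145% were. Cycling and other lipid-associated macrophages differed by 2-fold in 0 of 20 members, where 2.76% of all genes were higher and 0.0623% lower.

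**Figure D5:**
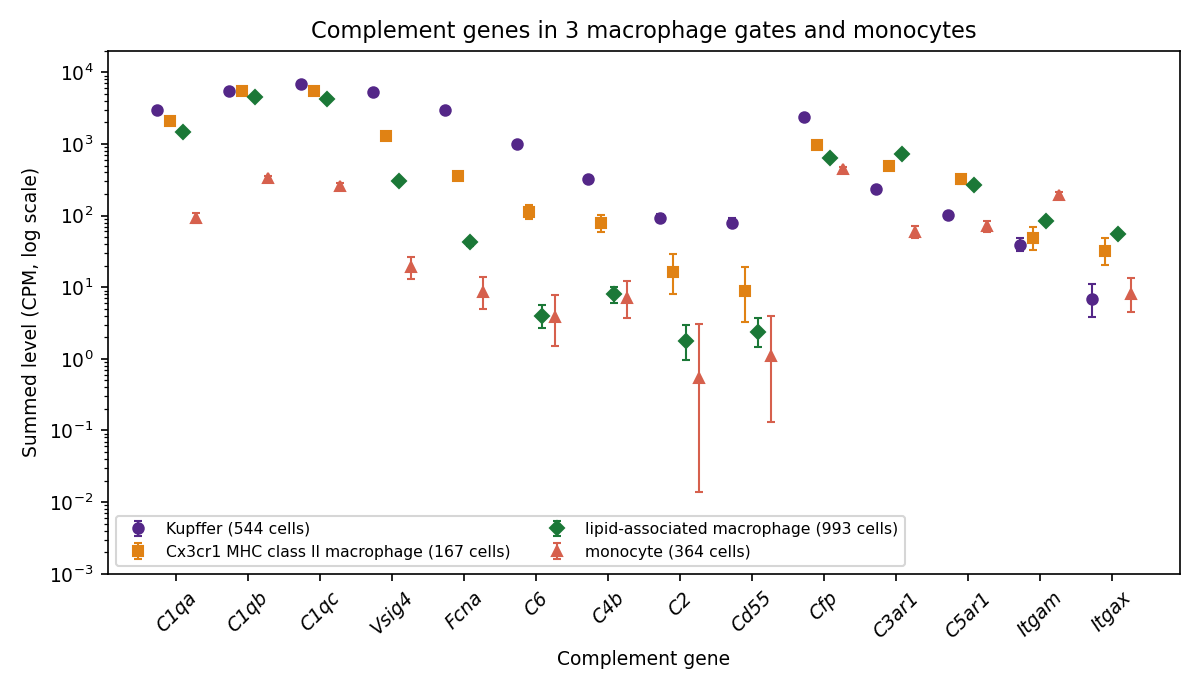
Level (CPM, log scale) of 14 members in Kupffer-gated cells, Cx3cr1 MHC class II macrophages, lipid-associated macrophages and monocytes, with 95% counting intervals. Vsig4, Fcna, C6, C4b, C2 and Cd55 fall from Kupffer-gated cells through Cx3cr1 macrophages to lipid-associated macrophages, C1q is within about 2-fold between them, and C3ar1 and Itgax run the other way.

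Kupffer-gated cells and lipid-associated macrophages, the macrophages that gather in injured liver, differed across the set. Of 27 tested members 9 were at least 2-fold higher in Kupffer-gated cells, against 5.13% of all 10386 genes, and 3 were lower, against 2.31%; the median log2 ratio was 0.31 over the members and 0.094 over all genes. C6 was 252 times higher (177 to 372), Fcna 70.4 times (63.1 to 78.8), C2 52.0 times (30.3 to 96.6), C4b 41.1 times (31.7 to 54.0), Cd55 33.0 times (20.6 to 56.1), Vsig4 17.9 times (17.1 to 18.7) and Cfp 3.73 times (3.59 to 3.87). C1qa, at 2.05 times (1.99 to 2.11), lay at the threshold and passed it neither with every cell weighted equally nor after thinning. C3, at 2.98 times (2.54 to 3.50), passed it no longer when the 5% of cells with the highest doublet scores were left out, with a log2 ratio of 0.91 in place of 1.22. C3ar1 at 0.322 (0.295 to 0.351), C5ar1 at 0.375 (0.327 to 0.429) and Itgax at 0.123 (0.0699 to 0.203) of the lipid-associated level were the 3 lower members.

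Cx3cr1 macrophages stood between them for the Kupffer genes. Against Kupffer-gated cells 7 of 19 tested members were lower, where 3.40% of all 8108 genes were, and 2 were higher, where 1.65% were: C3ar1 at 2.09 times, which did not pass with every cell weighted equally, and C5ar1 at 3.18 times. Against lipid-associated macrophages 4 of 21 were higher, where 1.39% of all 9802 genes were, namely C6 at 29.0 times, C4b at 9.84, Fcna at 8.38 and Vsig4 at 4.27 times (2 members after thinning, which left fewer with enough counts), and 0 were lower, where 1.02% were. The Cx3cr1 average came from a minority of cells: Vsig4 was found in 32.9% and Fcna in 35.9% of them, and 13.8% had a UMI of Vsig4, Fcna and C6 together, against 92.6% of Kupffer-gated cells and 0.604% of lipid-associated macrophages (6.59%, 54.0% and 0% after thinning). In T, NK and plasma cells Vsig4 was found in 9.05% and Fcna in 9.95%.

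Kupffer-gated cells themselves were more even. The 499 with Marco, a scavenger receptor, held 3122 CPM of Fcna against 1273 in the 45 others, 130 against 49.4 CPM of C3 and 84.5 against 16.5 CPM of Cd55, the 3 of 16 tested members past 2-fold, where 1.99% of all genes were. C3 rested on 9 UMIs in the 45 others, and its call was lost with the stricter gate (log2 ratio 0.79) and without the highest doublet scores (0.92). None was lower, where 0.961% were. C6 stood at 1016 against 631 CPM, C4b at 337 against 203, and Vsig4, at 5388 against 5467 CPM, was level.

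Of 29 further complement pathway genes, those described here reached 50 CPM in some class. Vtn (365 CPM), Cfhr2 (209), Apcs (185), Cpb2 (173) and Cpn1 (118), which encode plasma regulators or pattern-binding proteins, were highest in hepatocytes. Clu, whose product can block pore insertion, stood at 1892 CPM in hepatocytes and 1512 in mesothelial-gated cells. Colec12 was highest in Kupffer-gated cells at 176 CPM with 151 in mesothelial-gated cells, and Cr1l, the rodent regulator also called Crry, stood at 109 CPM in Kupffer-gated cells, 97.9 in mesothelial-gated cells, 71.3 in T, NK and plasma cells and 27.5 in hepatocytes. Cd93, once proposed as a C1q receptor, stood at 275 CPM in lipid-associated macrophages and 4.64 in Kupffer-gated cells. Itgb2, the beta chain shared by complement receptors 3 and 4, was highest in neutrophils at 729 CPM, as was C1rl at 59.5 CPM, and C1qbp was highest in progenitors at 384 CPM. Between mesothelial-gated cells and hepatocytes 8 of 19 tested genes of this list were lower in the mesothelial gate, where 9.55% of all genes were. In the mesothelial gate 3 were higher, Cr1l and Colec12 among them, where 15.0% of all genes were.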

How the data were processed

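The authors deposited whole UMI counts for the 6 pooled samples labelled CluKO as 1 sparse matrix, made on genome build GRCm38 per the submitters' processing notes. For the aligner, counting program, strand setting and cell calling, the sources used here give no statement. Rows sharing a symbol were summed.

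Of 4694 cells, 4616 had 200 or more genes and no more than 20% of counts from mitochondrial genes. Scrublet in scanpy 1.11.5 marked 6 (0.130%), too few to count as a working doublet call, so a cut on doublet scores was an alternative. A marker counted at 2 or more UMIs. A cell took the class with the highest share of its markers, with at least 3 markers and a lead of 10 percentage points. This scoring rule, like the splits other than Enpp2 and albumin share, was chosen with the data in view. Splits used 2 UMIs (Enpp2, Marco), the median albumin share, 1000 CPM (Mmp12), 3 of 6 cycling markers, or Ltf, Camp and Ngp together.

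Class sums were scaled to CPM (numpy 2.4.6, scipy 1.17.1, pandas 2.3.3), with exact Poisson, conditional binomial and Clopper-Pearson intervals at 95%. Ratios were called at 2-fold with 20 CPM added and a summed count of at least 30. In counts simulated for mesothelial-gated cells and hepatocytes, all changed genes of at least 50 CPM were called at 4-fold, which is 100%. Those counts held counting error alone and no variation between cells. A 4-fold change at that level passes the call by its size, so the simulation checks the calculation only. Thinned values used 1000 UMIs per cell. All 35 members were described if they had at least 30 counts, other pathway genes if they reached 50 CPM in a class of at least 20 cells; 1 of these is not reported here. Members, lists and markers were chosen with earlier results of these data known. Positions come from the GENCODE annotation of GRCm38, promoter windows from RefSeq (GRCm38.p6). Alternatives were gate strictness, filters, doublet scores, per-cell means, thinning, count minimum and offset.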

Additional observations from a re-analysis of the deposited data

How the results depend on the processing

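Under 8 planned and 2 added alternatives (no lead between classes; hepatocytes with high albumin share only) no member ratio past 2-fold changed sign, and of 64 such ratios between 58 and 64 stayed past 2-fold under each, except after thinning (56 of 60) and with high-albumin hepatocytes only (18 of 18). The class of highest level stayed the same for 33 of 33 or 32 of 33 members, Itgax being the exception, and for 29 of 31 after thinning, where C1qb moved to Cx3cr1 macrophages. Counts of members that moved by over 1.5 times were these. Cycling against other mesothelial-gated cells gave 2 lower in place of 5 from per-cell means. Enpp2-positive against other mesothelial-gated cells gave 2 lower in place of 1 after thinning and with an offset of 5 CPM. Cx3cr1 against lipid-associated macrophages gave 2 higher in place of 4 after thinning and 1 lower in place of 0 with an offset of 5 CPM. Mmp12-high against Mmp12-low cells gave 0 higher in place of 1 after thinning. With an offset of 5 CPM, Kupffer against lipid-associated macrophages gave 5 lower in place of 3 and Marco-positive against other Kupffer-gated cells 1 lower in place of 0. High against low albumin share gave 2 lower in place of 0 with no lead. The cause of these moves was not tested. For C1qb, C5ar2, Masp1 and Itgax the interval of the ratio to the next class spans equality. No paired analysis was possible because the 6 samples are pooled in 1 matrix.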

Other observations

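The 406 unassigned cells, which carried too few markers of any class or markers of several, held 1220 CPM of C3 (1174 to 1267), 929 CPM of C1qb, 858 CPM of C1qc, 288 CPM of Serping1 and 126 CPM of Fcnb. C3 and C1q, which the gates place in different cells, were thus both present among them, and they contain 6.60% of all C3 UMIs and 13.3% of Fcnb UMIs.

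In the 6 stellate or fibroblast cells Serping1 stood at 3229 CPM (2694 to 3839) in 6 of 6 cells, C3 at 5247 CPM (4558 to 6010), C1s1 at 1286 CPM (958 to 1691), C1ra at 782 CPM (531 to 1110) and Cd55 at 580 CPM (368 to 871), in 4 or 5 of 6 cells. C2 stood at 252 CPM (121 to 464), C4b at 126 CPM (41.0 to 294) in 2 of 6 cells, and Cfb had 1 UMI. With 6 cells the values describe these cells and no class. The other pathway gene Cd93 ran opposite to Vsig4 between the macrophage gates, at 275 against 4.64 CPM for lipid-associated and Kupffer-gated cells.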
